A study of Mus musculus with 8 samples.

Results

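Translating ribosome affinity purification (TRAP) of Sox9 mutant lung was set against TRAP of wild-type lung at embryonic day 16 (E16), across the genes measured in both. The comparison rests on 4 libraries of strain C57BL/6, 2 labelled Sox9-mutant and 2 labelled wildtype, and E13 in their titles is left unexplained by the labels. In all of them the tag was induced with tamoxifen and ribosomes were recovered by immunoprecipitation of L10, a ribosomal protein. The values are therefore meant to describe RNA bound to ribosomes of the labelled cells. How much other RNA came along was not measured. The series is about Sox9 progenitors, but the labels used here do not name the driver of the tag, the Sox9 allele or whether embryos were pooled. The other 4 libraries of the series, wild-type TRAP and whole lung at E14 and at E17 with 1 library each, served only for description.

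Of 24487 records in the deposited tables, 11841 were kept because they averaged 1 FPKM or more in the 4 E16 libraries (fragments per kilobase of transcript, scaled by library) and spanned at least 200 bases. The kept records carried 11796 symbols. They included 214 that passed through the mutant mean alone and 159 that passed through the wild-type mean alone. Of the 12646 records not kept, 6649 were at 0 in all 4 libraries. At the edge of the filter, Tmem136 was kept with a mean of 1.00 FPKM and 9830147E19Rik was left out with 0.9996 FPKM.

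Sox9 is a transcription factor of the growing tips of the lung epithelium, where it is switched on downstream of fibroblast growth factor (FGF) signalling and marks progenitors that will form the gas-exchange surface. The stalks behind the tips carry Sox2 instead and give rise to the conducting airways, with their secretory club cells, multiciliated cells and basal cells. In cartilage, the same factor drives genes of the extracellular matrix. Around E16 the distal epithelium begins to express genes of the surfactant-making alveolar type 2 cell and the flat alveolar type 1 cell.

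Sox9 itself (chr11:112782210-112787757, mm10) had 12.8 and 11.03 FPKM in the mutant libraries, against 35.9 and 36.4 FPKM in the wild type. Both mutant values lay below both wild-type values, and the log2 difference on the log2(FPKM + 1) scale was -1.53 ± 0.08 (SE, n = 2 libraries each; limma adjusted p = 6.3e-05). Sox9 RNA remained measurable in both mutant libraries. Here as for every gene below, fewer cells that express it and less RNA per cell cannot be told apart.

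The epithelial markers Nkx2-1 and Epcam stood above whole lung at E14 and E17, with 1 whole lung library at each stage. Whole lung had 78.3 and 194 FPKM of Nkx2-1 and 84.1 and 113 FPKM of Epcam at these stages. Nkx2-1, a lung epithelial factor, had 306 and 287 FPKM in the mutant, against 357 and 366 FPKM in the wild type, and the adhesion gene Epcam had 293 and 284 FPKM in the mutant, against 308 and 290.4 FPKM in the wild type. Mesenchymal markers were present at low levels: Col1a1 had 18.8 and 40.7 FPKM in the mutant, against 30.6 and 41.6 FPKM in the wild type, where whole lung had 273 FPKM at E14 and 334 FPKM at E17. Wild-type replicate 1 stood apart in sex-linked RNA. It had 14.01 FPKM of the Y-linked Eif2s3y, against 0.0919 and 0 FPKM in the mutant libraries and 0.0745 FPKM in the other wild-type library, and its Xist was 0.0179 FPKM, against 1.01 and 1.24 FPKM in the mutant and 1.03 FPKM in the other wild-type library. The groups are therefore not matched for sex. The confidence bounds in the tables correspond to between 17366187 and 20193311 fragments per library, but these inferred fragments do not follow FPKM for every record: in 52 of 11832 records fragments per FPKM differed between the groups by over 0.5 on the log2 scale beyond the median. Replicates differed by more than 2-fold in 0.372% of kept records in the mutant and in 0.110% in the wild type, and a mutant and a wild-type library did so in between 4.67% and 5.43%.

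In the mutant, 2121 records were higher (17.9% of those tested) and 1770 were lower (14.9%) at an adjusted p of at most 0.05. Counts in the gene lists below are to be read beside these shares. Several lists lay near them in 1 direction, such as G1 cyclins and their kinases (17.4% lower) and multiciliated genes (12.5% lower). Most differences that passed were small. Of the records that passed, 338 were at least 2-fold higher (2.85%) and 229 at least 2-fold lower (1.93%), while 1129 of the higher and 1157 of the lower records differed by under 0.5 on the log2 scale. Both mutant values lay above both wild-type values in 4366 records (36.9%) and below them in 3950 (33.4%). Leaving out wild-type replicate 1 gave 1405 higher and 1031 lower records, and leaving out wild-type replicate 2 gave 1291 and 873. Higher records made up 54.5% of those that passed with the values as deposited, 68.3% when the kept records were scaled to a common total and 42.3% after centring every library at its median. A fit of the inferred fragments by limma-voom left 41 of the 292 named genes that passed with a log2 difference under the reported one by more than 1.5 times and 25 above it by as much. Genes near 0 in 1 group had larger differences with a pseudocount of 0.1 in place of 1: Spink4 had 6.42 in place of 3.25, and Rbpjl had -4.85 in place of -2.82.

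**Figure D1:**
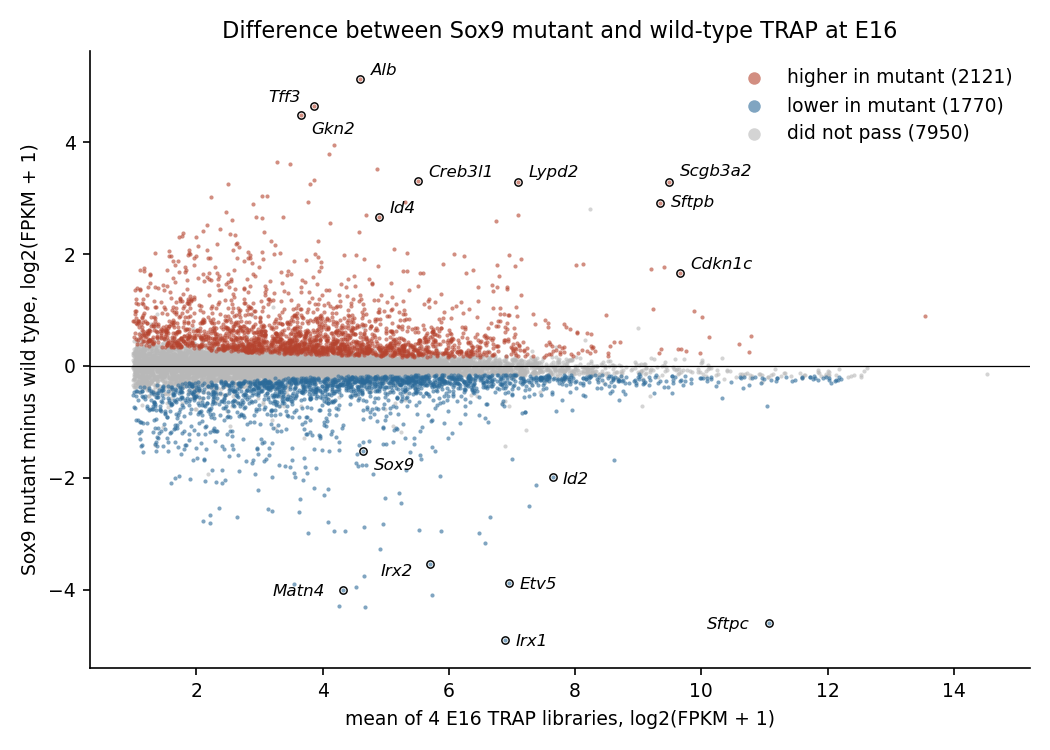
Each point is 1 of the 11841 kept records; the horizontal axis gives its mean level over the 4 E16 TRAP libraries and the vertical axis the Sox9 mutant minus wild-type difference, both as log2(FPKM + 1). Colours mark records that passed at an adjusted p of 0.05, and circles mark genes named in the text: of the circled genes Alb, Tff3 and Gkn2 stand highest, and Irx1, Sftpc, Matn4 and Etv5 lowest.

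Transcription factors of the distal epithelium were among the largest losses. All 4 Iroquois homeobox genes that passed the filter, of 6 in the list, fell. Irx1 (chr13:71958232-71963723) had 5.91 and 7.51 FPKM in the mutant libraries, against 221 and 234 FPKM in the wild type, the lowest log2 difference among genes named here on the log2(FPKM + 1) scale (-4.90 ± 0.10, adjusted p = 4.8e-06). Irx3 (chr8:91798511-91801654) had 17.7 and 18.3 FPKM in the mutant libraries, against 169 and 172 FPKM in the wild type (-3.18 ± 0.05, or -1.52 with limma-voom). Neither gene's mutant values came near its wild-type values. Irx2 had 6.54 and 8.08 FPKM in the mutant, against 93.2 and 97.1 FPKM in the wild type. Irx5 had 11.4 and 11.9 FPKM in the mutant, against 60.1 and 60.2 FPKM in the wild type. These 4 genes lie in a pair of clusters, with Irx1 and Irx2 on chromosome 13 and Irx3 and Irx5 on chromosome 8. Crnde, a noncoding gene 1675 bases from Irx5, fell with them, with 4.78 and 5.23 FPKM in the mutant, against 44.9 and 41.6 FPKM in the wild type. Irx6 was under the filter and Irx4 was at 0 in all 4 libraries.

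Of 25 distal tip genes that passed the filter, 13 fell and 6 rose, against 14.9% and 17.9% of all records. Without wild-type replicate 2 the number that rose was 3. Etv5, an ETS factor induced by FGF (chr16:22381313-22439570), had 13.8 and 15.8 FPKM in the mutant libraries, against 237 and 225 FPKM in the wild type (-3.88 ± 0.07, adjusted p = 4.4e-06). Id2, an inhibitor of helix-loop-helix factors long used to mark the tip, had 74.5 and 84.3 FPKM in the mutant, against 317 and 321 FPKM in the wild type. Wnt7b, a Wnt ligand of the lung epithelium, had 24.3 and 27.7 FPKM in the mutant, against 171 and 176 FPKM in the wild type, and the secreted protein gene Mia had 57.3 and 65.2 FPKM in the mutant, against 274 and 266 FPKM in the wild type. All of these were several-fold lower in both mutant libraries. Smaller losses were found for the forkhead gene Foxp2 (11.3 and 12.6 FPKM in the mutant, against 33.5 and 33.8 FPKM in the wild type) and for the proliferation factor Mycn (19.2 and 14.4 FPKM in the mutant, against 44.9 and 46.3 FPKM in the wild type). With limma-voom the log2 differences were -0.89 for Wnt7b, in place of -2.69, and -0.63 for Foxp2, in place of -1.42. The tip list did not move as a block. Dlk1, Cldn18 and Bmp4, the most abundant members that did not pass, had log2 differences of 0.03, 0.07 and 0.27, and the mutant and wild-type values of Dlk1 overlapped.

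**Figure D2:**
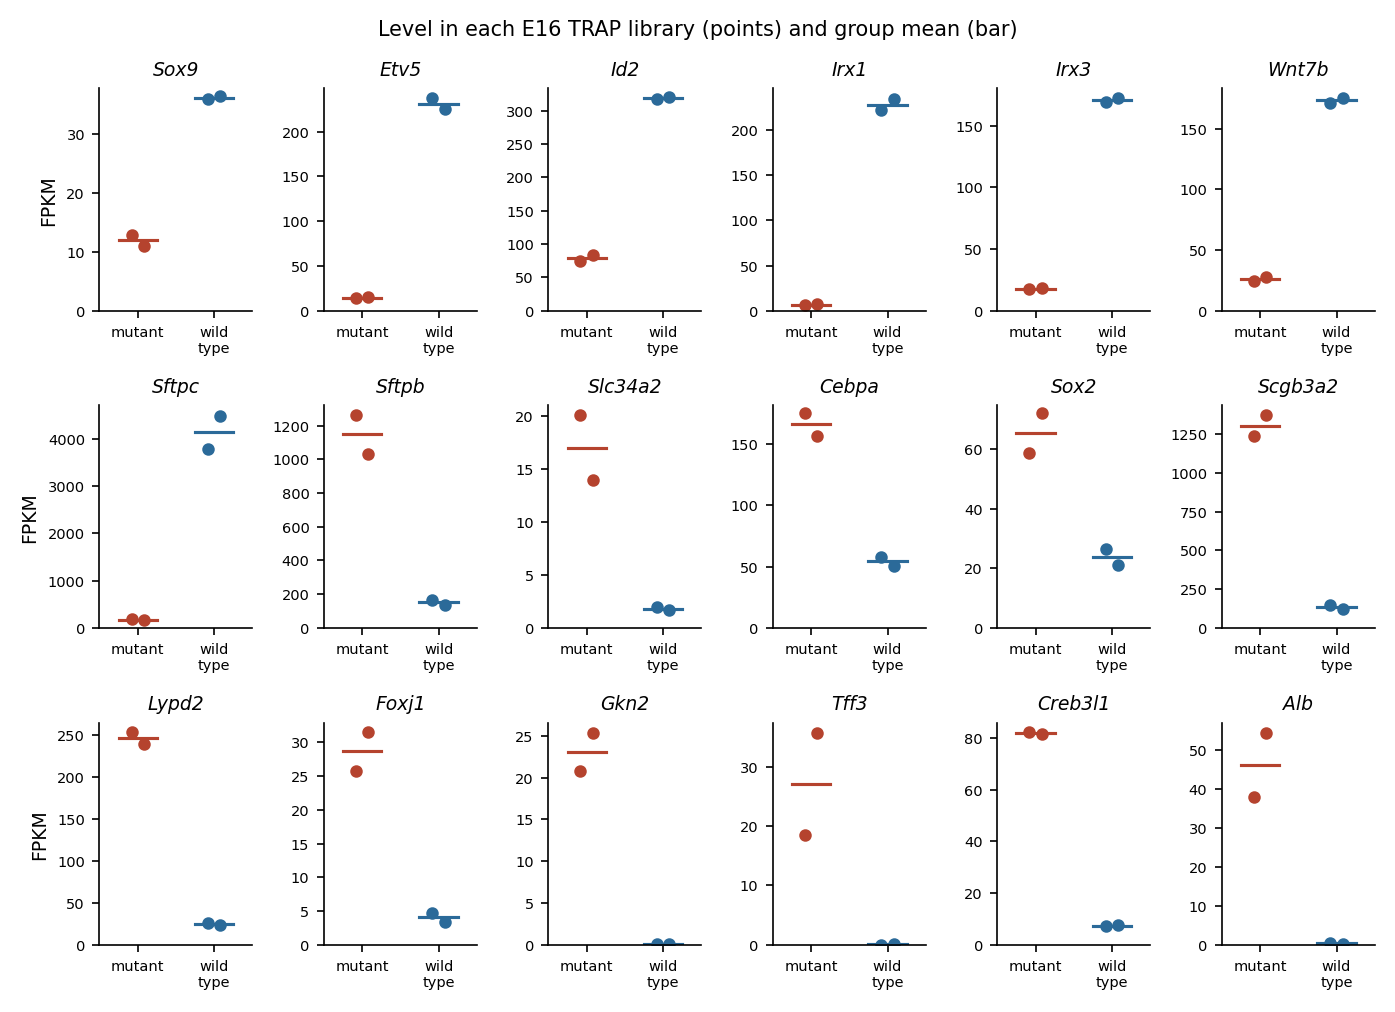
FPKM of 18 genes in each E16 TRAP library, with Sox9 mutant on the left and wild type on the right of each panel; points are single libraries, bars are group means, and each panel has its own axis from 0. The top row and Sftpc are low in both mutant libraries, and the other genes are high in both.

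The promoters of 4 changed genes are shown as examples. Irx3 and Etv5 were lost in the mutant, and Sftpb, a surfactant gene, and Alb, the albumin gene, were gained. Windows are from RefSeq (GRCm38.p6, the assembly of mm10) and run from 250 bases before to 50 bases after the start on the gene's strand. Irx3 is at chr8:91801605-91801904 (minus strand), Etv5 at chr16:22439521-22439820 (minus), Sftpb at chr6:72304360-72304659 (plus) and Alb at chr5:90460620-90460919 (plus). Capitals mark AACAAT and ACAAAG, short forms of the SOX motif, and TGTTTAC, a forkhead motif, on either strand.
Irx3: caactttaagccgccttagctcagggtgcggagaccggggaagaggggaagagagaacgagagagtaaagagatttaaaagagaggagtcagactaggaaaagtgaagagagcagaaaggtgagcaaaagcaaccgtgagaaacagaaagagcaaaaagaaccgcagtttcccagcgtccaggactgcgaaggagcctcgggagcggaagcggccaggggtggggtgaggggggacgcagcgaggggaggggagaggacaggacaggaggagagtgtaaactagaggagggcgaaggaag
Etv5: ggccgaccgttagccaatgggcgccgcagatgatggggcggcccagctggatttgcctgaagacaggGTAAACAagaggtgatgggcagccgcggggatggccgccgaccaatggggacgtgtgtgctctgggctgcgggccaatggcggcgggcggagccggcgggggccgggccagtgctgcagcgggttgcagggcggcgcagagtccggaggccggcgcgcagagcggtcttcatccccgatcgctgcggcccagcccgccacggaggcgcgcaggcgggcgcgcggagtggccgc
Sftpb: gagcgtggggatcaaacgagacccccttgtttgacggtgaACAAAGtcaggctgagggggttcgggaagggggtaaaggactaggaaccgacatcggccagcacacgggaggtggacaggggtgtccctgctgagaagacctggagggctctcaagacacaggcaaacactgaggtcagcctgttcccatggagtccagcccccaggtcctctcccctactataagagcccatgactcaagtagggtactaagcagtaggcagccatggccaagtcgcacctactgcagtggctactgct
Alb: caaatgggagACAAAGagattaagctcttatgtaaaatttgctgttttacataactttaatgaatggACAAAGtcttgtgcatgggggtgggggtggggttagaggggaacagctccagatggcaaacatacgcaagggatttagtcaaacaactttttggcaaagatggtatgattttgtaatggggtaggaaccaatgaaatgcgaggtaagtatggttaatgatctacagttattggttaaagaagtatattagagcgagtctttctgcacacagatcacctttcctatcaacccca

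The Sftpb window held 1 ACAAAG and the Alb window 2, the Etv5 window held 1 TGTTTAC, and the Irx3 window held none of the 3. Of the other windows looked up, those of Irx2, Matn4, Cytl1, Gkn2 and Apoa1 also held none of the 3, and none of them is shown. No window was found for Irx1, Sftpc, Trf, Creb3l1, Tff3 and Eya2. A window was found for 8919 kept records. AACAAT or ACAAAG was present in 31 of 151 windows of records at least 2-fold lower in the mutant (20.5%) and in 49 of 226 of those at least 2-fold higher (21.7%), beside 17.4% of all windows. TGTTTAC was present in 4 of the 151 (2.65%) and in 15 of the 226 (6.64%), beside 2.40% of all. ATCAAAG, a motif of the Wnt effectors TCF and LEF, was present in 9 of the 151 (5.96%) and in 6 of the 226 (2.65%), beside 2.34% of all. A letter match describes the window and is not a site of binding.

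Genes of the FGF response went in both directions. Of 19 that passed the filter, 9 rose and 3 fell, and those that fell were Etv5 and the receptors Fgfr4 and Fgfr2. Fgfr2, the main epithelial receptor for FGF10, had 41.3 and 36.95 FPKM in the mutant, against 94.4 and 88.9 FPKM in the wild type, and Fgfr4 had 3.59 and 4.39 FPKM in the mutant, against 16.97 and 15.8 FPKM in the wild type. Fgfr3, another receptor, went the other way, with 46.3 and 43.02 FPKM in the mutant, against 22.3 and 20.9 FPKM in the wild type. Inhibitors and targets that FGF signalling induces were among the genes that rose: Spry1 had 78.5 and 79.9 FPKM in the mutant, against 42.9 and 37.99 FPKM in the wild type, and Flrt3 had 13.1 and 11.2 FPKM in the mutant, against 2.599 and 2.41 FPKM in the wild type. With limma-voom the log2 differences were -0.43 for Fgfr2, in place of -1.21, and 0.67 for Fgfr3, in place of 1.01. Etv4, the close relative of Etv5, also rose (log2 difference 1.02). Spry2, also an induced inhibitor, had 47.6 and 44.4 FPKM in the mutant, against 51.1 and 45.7 FPKM in the wild type, and did not pass (adjusted p = 0.48).

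Several Wnt target genes fell. Axin2, a feedback inhibitor transcribed in response to Wnt, had 0.817 and 0.976 FPKM in the mutant libraries, against 6.73 and 7.29 FPKM in the wild type (-2.08 ± 0.10, adjusted p = 4.7e-05). Rnf43, which removes Wnt receptors from the surface, had 8.02 and 7.71 FPKM in the mutant, against 24.9 and 24.3 FPKM in the wild type. The targets Nkd1, Tcf7 and Sp5 had log2 differences of -1.70, -1.46 and -2.61. Over the whole list of Wnt targets and regulators, 11 of 26 fell and 9 rose, and the largest rise was in the cyclin gene Ccnd2, with 152 and 146 FPKM in the mutant, against 57.8 and 51.1 FPKM in the wild type. The Wnt secretion gene Wls and the receptor Fzd2 did not pass, at -0.12 and -0.13.

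In the BMP and TGF-beta list, 11 of 33 genes rose and 10 fell, or 6 with either wild-type replicate left out. With a filter of 5 FPKM 6 rose. The Id genes, which BMP signalling induces, went in different directions. Id2 fell, as above. Id4 rose, with 48.7 and 51.7 FPKM in the mutant, against 8.03 and 6.33 FPKM in the wild type (2.65 ± 0.10, adjusted p = 2.5e-05), and Id1 rose, with 186 and 161 FPKM in the mutant, against 61.01 and 71.9 FPKM in the wild type. Id3 had 181 and 150.2 FPKM in the mutant, against 127 and 171 FPKM in the wild type, with overlapping groups. Tgfb2, a TGF-beta ligand, fell (3.46 and 3.85 FPKM in the mutant, against 33.5 and 36.95 FPKM in the wild type). In the Notch list, 7 of 19 genes rose and 2 fell, or at most 1 with any single library left out. The ligand Jag1 had 5.59 and 5.31 FPKM in the mutant, against 1.36 and 1.15 FPKM in the wild type, and the target Hes1 had 65.02 and 64.8 FPKM in the mutant, against 41.3 and 45.9 FPKM in the wild type. Of 15 targets and regulators of the Hippo pathway effector YAP, 9 rose and 2 fell, or 1 with any single library left out. Ctgf and Cyr61 rose, by 0.66 and 0.61 on the log2 scale, and the fall was largest for Vgll4, a TEAD cofactor that opposes YAP, with 20.8 and 22.9 FPKM in the mutant, against 70.5 and 71.4 FPKM in the wild type.

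Among retinoic acid genes 6 of 13 rose and 3 fell. Dhrs3, a retinaldehyde reductase induced by retinoic acid, had 27.5 and 28.3 FPKM in the mutant, against 9.42 and 9.58 FPKM in the wild type. The receptor Rarb rose as well, with 22.5 and 26.4 FPKM in the mutant, against 10.9 and 11.5 FPKM in the wild type. Axon guidance genes moved both ways, 15 of 40 up and 14 down. Ntn1 and Ntn4, netrins, fell by 2.56 and 1.66 on the log2 scale. The semaphorins Sema3a and Sema3c rose, with log2 differences of 1.68 and 1.40.

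Matrix genes known as Sox9 targets in cartilage mostly fell. Of 21 that passed the filter, 14 fell and 4 rose, and the median log2 difference was -0.74, against 0.0075 over all records. Of these 21, 5 passed the filter through 1 group alone. Matn4, a matrilin, had 1.01 and 1.74 FPKM in the mutant libraries, against 34.2 and 39.4 FPKM in the wild type (-4.01 ± 0.15, adjusted p = 2.3e-05). Cytl1, a secreted cytokine-like protein, had 1.01 and 1.97 FPKM in the mutant, against 47.8 and 47.3 FPKM in the wild type. The type IX collagen gene Col9a3 had 1.74 and 1.49 FPKM in the mutant, against 13.9 and 15.7 FPKM in the wild type. Its partner Col9a1 had 0.314 and 0.638 FPKM in the mutant, against 4.98 and 5.005 FPKM in the wild type. Matn3, another matrilin, moved against them, with 3.397 and 3.47 FPKM in the mutant, against 0.367 and 0.334 FPKM in the wild type. With a filter of 5 FPKM 1 of the list rose. Matn4 overlaps Rbpjl on the genome, and Rbpjl, a relative of the Notch effector Rbpj, had 0.193 and 0.114 FPKM in the mutant, against 7.46 and 6.799 FPKM in the wild type. Use of strand in the counting was not given in the sources used here, so reads of these overlapping genes cannot be told apart. Among basement membrane genes, 9 of 33 rose and 9 fell. Tinag, a basement membrane glycoprotein, had 0.789 and 0.908 FPKM in the mutant, against 31.3 and 39.8 FPKM in the wild type, and Lama3, a laminin chain, had 0.75 and 0.651 FPKM in the mutant, against 4.16 and 4.01 FPKM in the wild type. Thbs1, a matricellular protein, had 3.94 and 5.96 FPKM in the mutant, against 95.01 and 103 FPKM in the wild type. Col18a1, a basement membrane collagen, had 18.4 and 19.8 FPKM in the mutant, against 163 and 152 FPKM in the wild type, and its log2 difference of -2.98 was -0.87 with limma-voom.

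The surfactant genes went in opposite directions. Sftpc (chr14:70520942-70524081), which encodes surfactant protein C and is the classic product of type 2 cells and their progenitors, had 176 and 162 FPKM in the mutant libraries, against 3788 and 4487 FPKM in the wild type (-4.60 ± 0.09, adjusted p = 4.4e-06). In the ranking of kept records by level it stood 581st in the mutant and 28th in the wild type. Sftpb (chr6:72304610-72314373), which encodes surfactant protein B, had 1263 and 1033 FPKM in the mutant libraries, against 168 and 137 FPKM in the wild type (2.91 ± 0.12, adjusted p = 3.4e-05), and stood 101st in the mutant and 669th in the wild type. In the alveolar type 2 list, 8 of 20 genes rose and 6 fell. Sftpd, a collectin of the airspace, rose with Sftpb (9.81 and 7.69 FPKM in the mutant, against 0.719 and 1.07 FPKM in the wild type), as did the phosphate transporter Slc34a2 (20.1 and 13.97 FPKM in the mutant, against 1.95 and 1.64 FPKM in the wild type) and the regulator Cebpa (175 and 157 FPKM in the mutant, against 57.8 and 50.5 FPKM in the wild type). With limma-voom Sftpb rose by 0.59 on the log2 scale and Cebpa by 0.58, in place of 2.91 and 1.60. Lgi3 fell with Sftpc (7.17 and 6.19 FPKM in the mutant, against 52.2 and 54.8 FPKM in the wild type). Bmp1, Sftpc and Lgi3 are neighbours on chromosome 14, with 681 bases between Bmp1 and Sftpc, and Bmp1 had 25.7 and 23.4 FPKM in the mutant, against 62.4 and 60.2 FPKM in the wild type, with a log2 difference of -1.29, or -0.61 with limma-voom.

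Of 22 alveolar type 1 genes, 12 rose and 3 fell. S100a6, a calcium-binding protein, had 194 and 198 FPKM in the mutant, against 49.3 and 48.1 FPKM in the wild type. Cav2, a caveolin, had 20.5 and 22.5 FPKM in the mutant, against 8.19 and 8.38 FPKM in the wild type. Against these, Igfbp2, an IGF-binding protein, had 175 and 196 FPKM in the mutant, against 576 and 627 FPKM in the wild type. The type 1 marker Ager had 113 and 79.5 FPKM in the mutant, against 91.8 and 91.2 FPKM in the wild type, and Hopx had 160.5 and 117 FPKM in the mutant, against 121 and 125 FPKM in the wild type, so the groups overlapped for both and neither passed (adjusted p = 0.82 and 0.44). Without mutant replicate 1 the log2 difference of Ager was -0.20, with an adjusted p of 0.037.

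Most club cell genes that passed the filter rose, as did the airway factor Sox2. Sox2 had 58.6 and 72.1 FPKM in the mutant libraries, against 26.4 and 20.99 FPKM in the wild type (1.43 ± 0.13, adjusted p = 5.6e-04). Of 30 genes in the club and secretory list, 14 passed the filter, 2 of them through 1 group alone. Of the 14, 11 rose and none fell, and 9 rose when records were tested with no filter on level. Scgb3a2, a secretoglobin, had 1236 and 1372 FPKM in the mutant libraries, against 145 and 121 FPKM in the wild type (3.28 ± 0.10, adjusted p = 1.1e-05; 1.34 with limma-voom). Lypd2, a Ly6-family surface protein, had 254 and 239 FPKM in the mutant, against 25.4 and 23.01 FPKM in the wild type. Hp, the haemoglobin-binding haptoglobin, had 42.4 and 44.4 FPKM in the mutant, against 6.29 and 5.47 FPKM in the wild type, and the cytochrome gene Cyp2f2 had 9.63 and 13.3 FPKM in the mutant, against 3.17 and 3.98 FPKM in the wild type. Scgb1a1, the best-known club cell secretoglobin, had 249 and 300.5 FPKM in the mutant, against 266 and 290.0 FPKM in the wild type, with overlapping groups (adjusted p = 0.88). Whole lung at E17 had 304 FPKM of Scgb3a2 and 228 FPKM of Scgb1a1.

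In the multiciliated list 9 of 16 genes rose and 2 fell, or 1 without wild-type replicate 2. With a filter of 5 FPKM, 3 rose. The genes that rose included early regulators of multiciliation. Foxj1, the master factor of motile cilia, had 25.8 and 31.5 FPKM in the mutant libraries, against 4.73 and 3.37 FPKM in the wild type (2.56 ± 0.15, adjusted p = 9.0e-05). Ccno and Mcidas are adjacent genes of centriole amplification. Ccno had 21.7 and 19.2 FPKM in the mutant, against 7.18 and 5.28 FPKM in the wild type. Mcidas had 4.98 and 5.98 FPKM in the mutant, against 1.495 and 0.708 FPKM in the wild type. The axonemal dynein genes Dnah5 and Dnah9 were near 0, the first with 0.0143 and 0.0028 FPKM in the mutant, against 0.0028 and 0 FPKM in the wild type, the other with 0.0297 and 0.0477 FPKM in the mutant, against 0.0287 and 0.0116 FPKM in the wild type. Tppp3, a tubulin-binding protein, fell (9.62 and 11.5 FPKM in the mutant, against 39.4 and 46.9 FPKM in the wild type). Of 8 basal genes that passed the filter, 2 of them through 1 group alone, 6 rose and 2 fell, and 3 rose with a filter of 5 FPKM. In place of 2, 1 fell without wild-type replicate 1. Krt15 had 33.05 and 44.9 FPKM in the mutant, against 6.59 and 6.46 FPKM in the wild type, and Trp63, the p63 factor of basal cells, had 1.76 and 2.46 FPKM in the mutant, against 0.166 and 0.204 FPKM in the wild type. Krt5, the keratin of mature basal cells, had 0 and 0.0647 FPKM in the mutant, against 0.194 and 0.0786 FPKM in the wild type. Of 5 neuroendocrine genes, Uchl1 alone passed, and it fell (68.2 and 61.4 FPKM in the mutant, against 118 and 131 FPKM in the wild type; the log2 difference was -0.93, or -0.51 with limma-voom); without mutant replicate 1, 3 of the 5 rose.

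Genes known from the stomach and from mucous cells were among the largest gains. Gkn2, a gastrokine of the stomach surface (chr6:87373365-87379494), had 20.8 and 25.3 FPKM in the mutant libraries, against 0.0728 and 0.0666 FPKM in the wild type (4.49 ± 0.11, adjusted p = 7.8e-06). Tff3, a trefoil peptide secreted with mucus, had 18.5 and 35.6 FPKM in the mutant libraries, against 0 and 0.145 FPKM in the wild type (4.64 ± 0.28, adjusted p = 9.7e-05). Spink4, a secreted protease inhibitor, had 5.35 and 13.3 FPKM in the mutant, against 0 and 0 FPKM in the wild type, and the mucin Muc5ac had 2.36 and 2.56 FPKM in the mutant, against 0.0988 and 0.0331 FPKM in the wild type. For each of these genes the wild-type libraries were at or near 0. Creb3l1, a factor that enlarges the secretory pathway, had 82.3 and 81.7 FPKM in the mutant libraries, against 7.25 and 7.53 FPKM in the wild type (3.31 ± 0.05, adjusted p = 3.7e-06), and Spdef, a factor of goblet cells, had 10.3 and 10.02 FPKM in the mutant, against 2.27 and 1.61 FPKM in the wild type. Of 62 genes of the secretory pathway that passed the filter, 8 rose (12.9%) and 12 fell (19.4%), with a list median of 0.056. In the list of stomach and mucous genes 8 of 16 rose and 3 fell, and 6 of the 16 passed the filter through 1 group alone. With a filter of 5 FPKM 4 rose. Among those that fell were the stomach proteases Cym (16.8 and 9.02 FPKM in the mutant, against 95.4 and 109 FPKM in the wild type) and Pgc (1.27 and 0.649 FPKM in the mutant, against 3.75 and 4.601 FPKM in the wild type). The trefoil gene Tff2 had 1.48 and 1.46 FPKM in the mutant, against 0.223 and 0 FPKM in the wild type. Its relative Tff1 had 0.241 and 1.18 FPKM in the mutant, against 0 and 0.135 FPKM in the wild type. Gkn1, the other gastrokine, was at 0 in all 4 libraries, and the intestinal factor Cdx2 had 0.0558 and 0.0441 FPKM in the mutant, against 0 and 0 FPKM in the wild type. Hnf4a, a factor of liver and gut, had 0.798 and 1.06 FPKM in the mutant, against 0.0207 and 0 FPKM in the wild type.

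Alb, which encodes serum albumin (chr5:90460889-90476603), had, on the log2(FPKM + 1) scale, the largest gain of all genes named here, with 37.9 and 54.2 FPKM in the mutant libraries, against 0.465 and 0.191 FPKM in the wild type (5.13 ± 0.18, adjusted p = 1.9e-05). With a pseudocount of 0.1 the order turned, with log2 differences of 6.81 for Alb, 7.09 for Gkn2 and 7.36 for Tff3. Trf, which encodes the iron carrier transferrin, had 35.7 and 30.4 FPKM in the mutant libraries, against 0.946 and 1.47 FPKM in the wild type (3.95 ± 0.13). Apoa1, an apolipoprotein, had 16.5 and 22.8 FPKM in the mutant, against 0.699 and 0.638 FPKM in the wild type. The fetal protein gene Afp, which lies 14110 bases from Alb, had 8.04 and 16.8 FPKM in the mutant, against 1.05 and 0.953 FPKM in the wild type. Of 36 plasma protein genes in the list, 10 passed the filter, 3 of them through 1 group alone, and of the 10, 6 rose and 3 fell. Those that fell were Apoc1, Apoe and Apoa2, at -1.27, -0.98 and -0.57. Apoa2 did not pass with either wild-type replicate left out (adjusted p = 0.061 and 0.09) or with limma-voom (adjusted p = 0.14). Other liver products were at or near 0 in every E16 library: Apob had 0 and 0 FPKM in the mutant, against 0 and 0.00287 FPKM in the wild type, and Ttr had 0 and 0.125 FPKM in the mutant, against 0.167 and 0.038 FPKM in the wild type.

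Most genes of epithelial junctions and polarity rose. Of 37 that passed the filter, 27 rose and 2 fell, or 17 and 1 without wild-type replicate 2. None fell without wild-type replicate 1, and 1 fell with either mutant replicate left out. The changes were moderate, with a list median of 0.39. Cdh1, the adherens junction cadherin, had 133 and 131 FPKM in the mutant, against 83.2 and 77.4 FPKM in the wild type, and F11r, a tight junction protein, had 73.1 and 72.7 FPKM in the mutant, against 40.3 and 40.7 FPKM in the wild type. Of 12 claudins 7 rose and 1 fell (none without mutant replicate 2 or with either wild-type replicate left out, and 2 without mutant replicate 1), with the largest gain in Cldn10 (176 and 183 FPKM in the mutant, against 88.2 and 83.6 FPKM in the wild type; 1.06 on the log2 scale, or 0.54 with limma-voom). Of 8 keratins 6 rose and 1 fell. Krt19 had 403 and 399.6 FPKM in the mutant libraries, against 111 and 117 FPKM in the wild type (1.80 ± 0.05, adjusted p = 8.2e-06). The simple keratins Krt7, Krt8 and Krt18 rose by less, with log2 differences of 0.69, 0.67 and 0.75. In the Ly6, Lypd and S100 list, of which 5 of 19 passed the filter through 1 group alone, 13 rose, or 8 with a filter of 5 FPKM, and 2 fell. Lypd6 and Lypd6b, adjacent on chromosome 2, had log2 differences of 2.64 and 2.75, and Ly6h had 3.49 and 2.74 FPKM in the mutant, against 27.4 and 34.9 FPKM in the wild type.

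**Figure D3:**
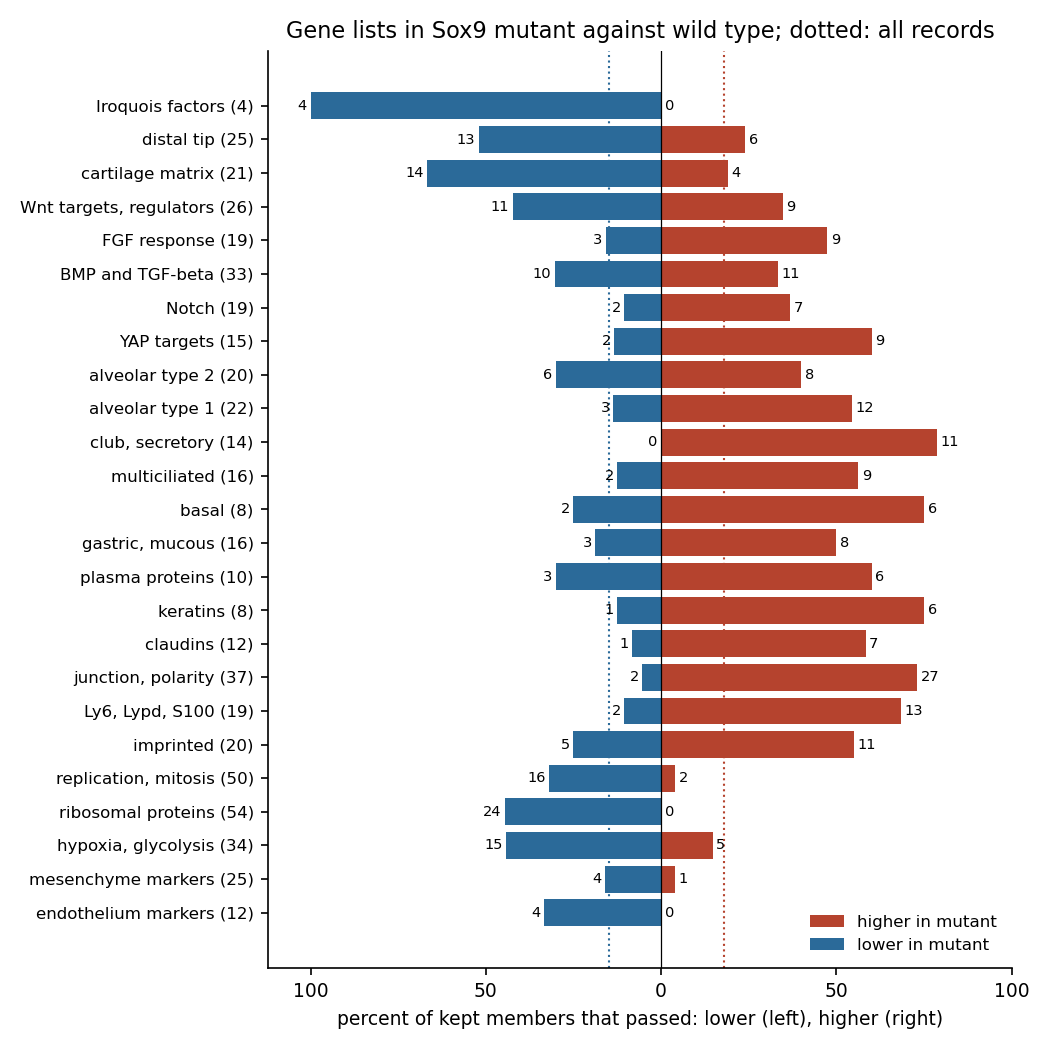
Bars give the percent of each list's kept members (number in brackets) that were higher (right) or lower (left) in the Sox9 mutant at an adjusted p of 0.05, with the count at the bar end; dotted lines mark 17.9% and 14.9%, the shares over all records. Iroquois, tip and cartilage matrix genes lean left, and club, keratin and junction genes lean right.

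Imprinted growth genes on chromosome 7 were among the genes with the largest gain in FPKM. Cdkn1c, which encodes the cell cycle inhibitor p57, had 1322 and 1142 FPKM in the mutant libraries, against 406 and 372 FPKM in the wild type (1.66 ± 0.08, adjusted p = 5.7e-05). Igf2, an embryonic growth factor, had 1087 and 1010.2 FPKM in the mutant, against 321 and 291 FPKM in the wild type, and H19, the noncoding gene 72621 bases away, had 948 and 864 FPKM in the mutant, against 281 and 264 FPKM in the wild type. H19 was far more abundant in whole lung than in TRAP, with 143 FPKM in TRAP at E14, against 1357 FPKM in whole lung, and 413 FPKM in TRAP at E17, against 1928 FPKM in whole lung. Phlda2, which restrains placental growth, had a log2 difference of 1.99. In the list 11 of 20 imprinted genes rose and 5 fell, or 3 with mutant replicate 1 or either wild-type replicate left out. Grb10, a growth inhibitor on another chromosome, had 147 and 151 FPKM in the mutant, against 266 and 259.8 FPKM in the wild type, and Dlk1 did not pass. These calls depended on the measure. With limma-voom the log2 difference was 0.13 for Cdkn1c (adjusted p = 0.30), 0.10 for H19 (adjusted p = 0.39), -0.14 for Igf2 (adjusted p = 0.20) and -0.23 for Grb10 (adjusted p = 0.052), and 6 of the list rose and 2 fell. H19 had 2267 and 2242 inferred fragments in the mutant libraries, against 2042 and 2051 fragments in those of the wild type, while its FPKM differed over 3-fold. Igf2 overlaps the antisense gene Igf2os, which had 25.7 and 24.9 FPKM in the mutant, against 11.3 and 11.7 FPKM in the wild type.

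Of 23 genes of G1 cyclins and their kinases 9 rose and 4 fell, or 2 without mutant replicate 1 and 1 with either wild-type replicate left out. The G1 cyclins Ccnd2, Ccne1 and Ccnd1 rose, with log2 differences of 1.44, 1.11 and 0.46. Of 50 genes of DNA replication and mitosis 16 fell and 2 rose, and none changed 2-fold. Birc5 had 189 and 193 FPKM in the mutant, against 234 and 241 FPKM in the wild type, and Pcna had 233 and 231 FPKM in the mutant, against 242 and 237 FPKM in the wild type, without passing. Of these 50 genes, 6 fell with either wild-type replicate left out, 9 fell with a common total and 26 with median centring. Of 34 genes of glycolysis and the hypoxia response 15 fell, or 9 without wild-type replicate 2, and 5 rose. Ldha, a lactate dehydrogenase, had 629 and 597 FPKM in the mutant, against 819 and 905 FPKM in the wild type, and the lactate exporter Slc16a3 had 30.2 and 25.3 FPKM in the mutant, against 58.6 and 67.6 FPKM in the wild type. Among all records that averaged at least 100 FPKM, 290 of 1007 fell and 138 rose. The 54 ribosomal protein genes, an abundant list, summed to 139506 and 137965 FPKM in the mutant, against 152862 and 163284 FPKM in the wild type. Of these 54, 24 fell and none rose, with a list median of -0.19. That count was 1 without wild-type replicate 2, 5 without mutant replicate 1 and 4 without mutant replicate 2, and 46 with median centring. With limma-voom Birc5, Ldha and Ccnd1 did not pass (adjusted p = 0.21, 0.48 and 0.54), and Slc16a3 had a log2 difference of -0.75, in place of -1.16. Among immediate early genes Jun fell (27.5 and 31.2 FPKM in the mutant, against 62.7 and 65.1 FPKM in the wild type), while Fos and Junb rose, at 1.39 and 1.41.

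Transcription factors of the lung epithelium rose more often than they fell, 21 of 42 against 8, or 5 lower without wild-type replicate 1. Klf5, a zinc finger factor of the lung epithelium, had 68.6 and 59.7 FPKM in the mutant, against 15.8 and 14.5 FPKM in the wild type. Elf5, an ETS factor of the distal tip in early lung, had 39.2 and 37.4 FPKM in the mutant, against 17.3 and 15.4 FPKM in the wild type. Membrane proteases and their inhibitors rose in 14 of 28 cases and fell in 7, or 4 without wild-type replicate 2. Wfdc2, a secreted protein with a protease-inhibitor fold, had 1203 and 1297 FPKM in the mutant, against 627 and 641 FPKM in the wild type. Among ion transport genes 11 of 24 rose and 5 fell. Atp1b1, a subunit of the sodium pump, had 186 and 183 FPKM in the mutant, against 32.1 and 27.3 FPKM in the wild type, and its partner Fxyd3 had 218 and 189 FPKM in the mutant, against 59.9 and 56.8 FPKM in the wild type. In lipid synthesis 9 of 44 genes rose (20.5%) and 8 fell (18.2%), near the shares of all records, and 3 fell without wild-type replicate 1 and 2 without wild-type replicate 2. The fatty acid carrier Fabp5 had 397 and 475 FPKM in the mutant, against 126 and 120.3 FPKM in the wild type, and Abca3, the lipid transporter of lamellar bodies, had 33.9 and 32.1 FPKM in the mutant, against 18.1 and 15.7 FPKM in the wild type. With limma-voom the log2 differences were 0.94 for Atp1b1, in place of 2.60, 0.63 for Fabp5, in place of 1.81, and 0.56 for Abca3, in place of 0.93.

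Several other genes had large changes. Among those higher, Eya2, a transcriptional coactivator, had 25.5 and 25.2 FPKM in the mutant, against 1.94 and 1.37 FPKM in the wild type, and Atp2a3, a calcium pump, had 67.01 and 71.4 FPKM in the mutant, against 9.43 and 7.199 FPKM in the wild type. Igfbp7 had 256 and 217 FPKM in the mutant, against 33.8 and 37.1 FPKM in the wild type, with a log2 difference of 2.70, or 1.45 with limma-voom. AU021092 had 54.3 and 50.5 FPKM in the mutant, against 3.31 and 4.02 FPKM in the wild type, and it was at 0.8 FPKM in E14 TRAP and 21.1 FPKM in E17 TRAP. Eif3j2 met the rule for large gains, with 38.6 and 10.1 FPKM in the mutant, against 2.796 and 0.282 FPKM in the wild type, but it overlaps its near-copy Eif3j1, which had 10.2 and 40.8 FPKM in the mutant, against 47.1 and 49.2 FPKM in the wild type. The division of reads between these copies is uncertain, and Eif3j2 was the one gene of the 40 largest changes whose call was lost under an alternative (adjusted p = 0.069 with no filter on level and 0.065 without wild-type replicate 2). Among those lower, Cntfr, a cytokine receptor, had 4.21 and 5.12 FPKM in the mutant, against 55.5 and 51.6 FPKM in the wild type. Scx, a factor best known from tendon, had 47.5 and 43.1 FPKM in the mutant, against 266 and 258 FPKM in the wild type, and Ppp1r3b, a glycogen-targeting subunit of a phosphatase, had 11.2 and 8.11 FPKM in the mutant, against 81.5 and 78.8 FPKM in the wild type.

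Genes lost in the mutant were often genes that TRAP recovered above whole lung in other wild-type libraries. Of the 229 records at least 2-fold lower in the mutant, 75 (32.8%) were at least 2-fold higher in TRAP than in whole lung at both E14 and E17, a pattern found in 3.53% of all records, and 6 (2.62%) were at least 2-fold lower in TRAP at both stages, beside 4.48% of all records. Of the 338 records at least 2-fold higher in the mutant, 23 (6.80%) were above and 26 (7.69%) below whole lung in this way. Irx1, for example, had 312 FPKM in E14 TRAP, against 52.9 FPKM in E14 whole lung. With a 3-fold limit, 10.9% of the lower and 0.296% of the higher records stood above whole lung, beside 0.524% of all. These 4 libraries carry no replicates and their shares no test.

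Gains in the mutant included many genes that were also higher late in development. Of the 338 records at least 2-fold higher in the mutant, 96 (28.4%) were at least 2-fold higher in E17 than in E14 TRAP, beside 4.53% of all records, and 9 (2.66%) were at least 2-fold lower, beside 1.64% of all. Of the 229 lower records, 42 (18.3%) were higher at E17 and 30 (13.1%) lower. Sftpb had 83.7 FPKM in E14 TRAP and 709 FPKM in E17 TRAP, and Lypd2 had 6.34 FPKM in E14 TRAP and 36.7 FPKM in E17 TRAP. Other gains had no such course in TRAP. Scgb3a2 had 91.5 FPKM in E14 TRAP and 106 FPKM in E17 TRAP, although whole lung had 46.8 FPKM at E14 and 304 FPKM at E17. Tff3 was at 0 in all 4 E14 and E17 libraries, and Sox2 had 12.8 FPKM in E14 TRAP and 4.405 FPKM in E17 TRAP. Sftpc, the largest loss in FPKM, had 399.6 FPKM in E14 TRAP and 11835 FPKM in E17 TRAP, so that both its mutant values lay below the E14 value.

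**Figure D4:**
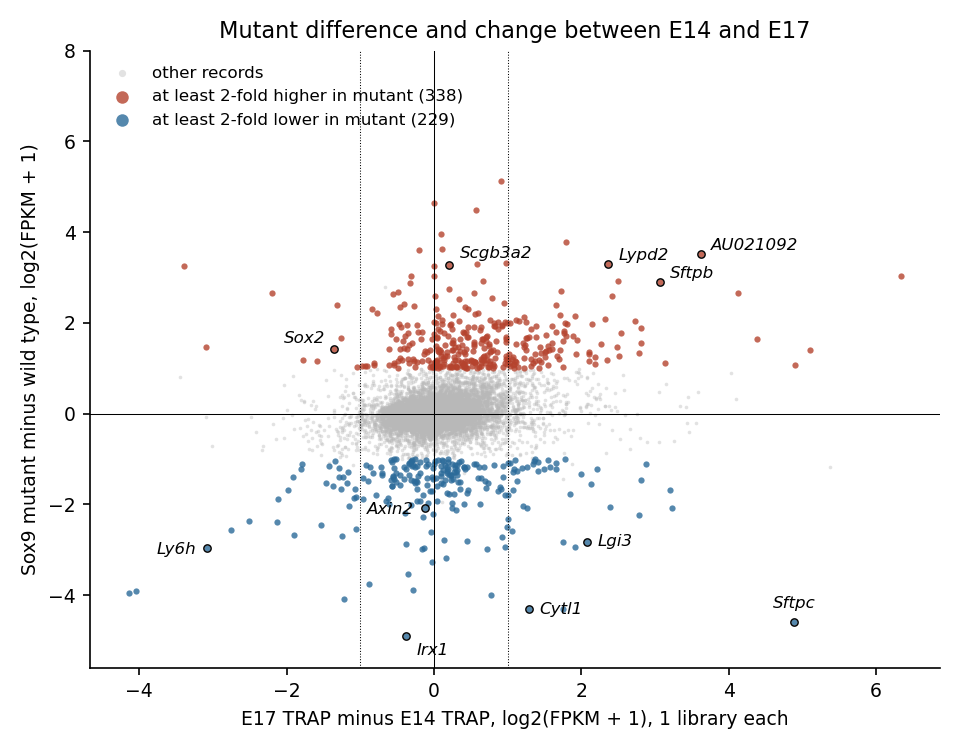
Each point is a kept record, with the difference between the E17 and E14 TRAP libraries (1 each) on the horizontal axis and the Sox9 mutant minus wild-type difference on the vertical axis, both as log2(FPKM + 1); dotted lines mark 2-fold. Sftpb, Lypd2 and AU021092 lie high and to the right, Sftpc low and to the right, and Irx1 low and near the middle.

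Neighbouring genes that changed in 1 direction were found among the largest changes. Between genes that follow each other among the kept records, 64 pairs were at least 2-fold changed in the same direction, 37 higher and 27 lower. Of these pairs, 23 lay within 10000 bases. The pairs include Igfbp7 and Tecrl, 5870076 bases apart, and overlapping genes such as Igf2 and Igf2os, which can share reads. The matching numbers over all adjacent records were not counted, so no excess of neighbours can be read from the 64. The following pairs were chosen after their values were seen. Slurp1, Lypd2 and Lynx1, all of the Ly6 family, follow each other on chromosome 15, and Slurp1 had 9.61 and 5.98 FPKM in the mutant, against 1.01 and 0.232 FPKM in the wild type. Slc22a18, a transporter gene between the imprinted Cdkn1c and Phlda2, had 4.77 and 5.47 FPKM in the mutant, against 1.05 and 1.08 FPKM in the wild type. Gm8909 and 2410017I17Rik lie 2069 bases apart on chromosome 17. Gm8909 had 1.17 and 2.56 FPKM in the mutant, against 43.7 and 40.8 FPKM in the wild type. 2410017I17Rik had 0 and 1.14 FPKM in the mutant, against 18.8 and 23.1 FPKM in the wild type. In the wild-type TRAP libraries of the other stages, Gm8909 had 34.6 FPKM at E14 and 1.02 FPKM at E17, and 2410017I17Rik had 15.5 FPKM at E14 and 0 FPKM at E17.

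Markers of mesenchyme, endothelium, smooth muscle and leukocytes did not rise as lists. Of 25 mesenchymal genes 4 fell, a share near that of all records, and 1 rose, a share under that of all records. The summed level of the list was 388 and 578 FPKM in the mutant, against 621 and 772 FPKM in the wild type. The number that fell was 11 with a replicate block and 7 with limma-voom. Without mutant replicate 2 it was 17, and without mutant replicate 1 the number that rose was 2. Of 12 endothelial genes 4 fell, or 7 without mutant replicate 1, 2 without mutant replicate 2 and 1 without wild-type replicate 2, and the list summed to 75.4 and 58.2 FPKM in the mutant, against 87.6 and 113 FPKM in the wild type. None of 8 smooth muscle and pericyte genes passed with limma, whose unadjusted p was under 0.05 for 5223 of all 11841 records, but 4 fell with a replicate block and 1 without wild-type replicate 1, and without mutant replicate 2, 2 fell and 1 rose. Leukocyte genes summed to 5.68 and 6.32 FPKM in the mutant, against 6.13 and 5.40 FPKM in the wild type, and the pan-leukocyte gene Ptprc had 0.0147 and 0.0173 FPKM in the mutant, against 0 and 0 FPKM in the wild type. The part of these shifts in the results above was not tested.

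Some single genes in the marker lists rose strongly. Myh7, a myosin heavy chain of the heart and of slow muscle, had 34.96 and 27.1 FPKM in the mutant libraries, against 1.33 and 1.24 FPKM in the wild type (3.80 ± 0.12, adjusted p = 1.5e-05). The cardiac list without Myh7 summed to 14.8 and 16.2 FPKM in the mutant, against 17.1 and 19.4 FPKM in the wild type, and Nkx2-5 and Nppa were at or near 0. Myh6, the other cardiac myosin heavy chain, was under the filter, with 1.19 and 0.951 FPKM in the mutant, against 0.16 and 0.118 FPKM in the wild type. Msln, a mesothelial surface protein, had 13.1 and 11.2 FPKM in the mutant, against 0.851 and 0.694 FPKM in the wild type, while the mesothelial list without Krt19 summed to 24.1 and 26.6 FPKM in the mutant, against 20.6 and 24.0 FPKM in the wild type. Of 9 erythroid genes 4 rose, or 1 without wild-type replicate 1, and 1 fell. Among globin genes, which share reads between near-copies, Hba-a2 had 139 and 183 FPKM in the mutant, against 85.9 and 114 FPKM in the wild type. Hbb-bt had 81.7 and 79.6 FPKM in the mutant, against 69.7 and 77.4 FPKM in the wild type. Hbb-bs had 9.14 and 5.57 FPKM in the mutant, against 0.00292 and 0.0029 FPKM in the wild type, a log2 difference of 3.02. Hba-a2 did not pass without wild-type replicate 1 (adjusted p = 0.096) or with no filter on level (adjusted p = 0.09). The erythroid marker Alas2 had 0.366 and 0.723 FPKM in the mutant, against 0.699 and 0.417 FPKM in the wild type.

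**Figure D5:**
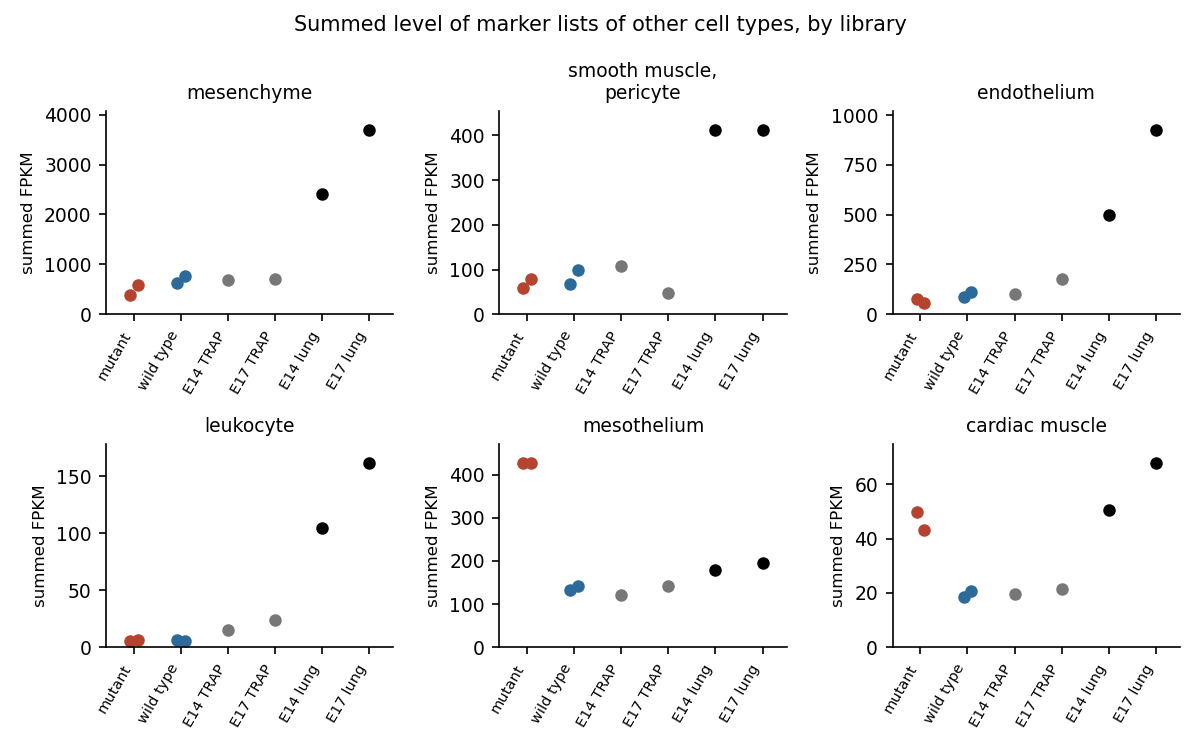
Summed FPKM of 6 marker lists in each library, on axes from 0: Sox9 mutant and wild-type TRAP at E16 (2 points each), then TRAP and whole lung at E14 and E17 (1 point each). The whole lung libraries stand above all TRAP libraries for mesenchyme, smooth muscle, endothelium and leukocytes; the high mutant points for mesothelium and cardiac muscle are carried by Krt19 and Myh7.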

How the data were processed

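Each library has its own deposited table, and per the file headers it gives every record an FPKM with confidence bounds on both sides. Reads were aligned to mm10 with TopHat2 2.0.14 and Bowtie2 2.2.3 and quantified by the authors with Cuffnorm from Cufflinks 2.2.1 (the tools and versions are named in the submitters' processing notes). The scaling of libraries was not given in the sources used here. Records were matched on tracking identifier, locus and start-site identifier. Starts are 0-based in the deposited positions and 1 was added.

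Differences were tested in R 4.3.3 by limma 3.58.1, applied to log2(FPKM + 1), which understates changes of low genes, with eBayes, a mean trend and two-sided p-values adjusted by Benjamini-Hochberg over all 11841 records (2 residual and 4.27 prior degrees of freedom). The labels do not say that replicates came from separate embryos, so p-values measure the spread between these samples. The fragments behind a value were computed from its bounds (upper bound taken as 2 standard errors) and used for depth and for limma-voom as an alternative only. Scripts were tested on simulated data.

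The members and the 51 gene lists were chosen with earlier results of these data known. A symbol with several records is represented by the one with the highest mean. Named are Sox9, the 20 largest changes per direction with groups that do not overlap and at least 10 FPKM in the higher group, the 10 largest differences in FPKM per direction among records changed at least 2-fold, per list at most 8 members by smallest p and the 3 most abundant that did not pass, and defining markers of cell types. Gene models, Riken clones, pseudogenes and small RNAs were passed over among the largest changes and the largest differences in FPKM. In addition, Nkx2-1, Sox2, Etv4, Tff1, Tff2, Myh6, Ttr, Alas2, Eif3j1, Igf2os, Slurp1, Slc22a18, Gm8909, 2410017I17Rik, Apob, Hnf4a, Dnah5 and Dnah9 were chosen after their values were seen.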

Additional observations from a re-analysis of the deposited data

How the results depend on the processing

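With 14 other settings (filter, pseudocount, scaling, trend, limma-voom on inferred fragments, replicate block, each library left out), the direction and call of Sox9 held in each, and 298 of the 423 named genes kept call and direction in every one. Counts of higher and lower records lay between 1291 and 1865 and between 873 and 1883 when 1 library was left out; at least 2-fold, they were 319 to 350 and 219 to 253. A filter of 5 FPKM tested 8584 records and left 207 and 140 of them at least 2-fold higher and lower. Between 1 and 5 FPKM, 131 records were at least 2-fold higher and 89 at least 2-fold lower. Igf2 reversed to -0.14 with limma-voom, where fragments per FPKM differed between its groups, and Ager lay between -0.20 and 0.31 when 1 library was left out; the cause was not tested. With a 3-fold limit, 0.296% of the higher and 10.9% of the lower records stood above whole lung, 14.5% of the higher and 7.86% of the lower records were higher at E17 than at E14 in TRAP, and 5.24% of the lower were lower at E17. With a filter of 5 FPKM, 10.6% of the higher and 41.4% of the lower records stood above whole lung. With that filter, 35.7% of the higher were higher at E17. At the 3-fold limit, the share of the higher records above whole lung lay under that of all records. Each of the other shares given for these settings lay above that of all records under the same setting.

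Same-numbered libraries did not deviate together over all records (r = -0.0075). The labels do not say whether the numbers pair samples. A correlation over all records cannot settle it, because pairing could touch only some genes. With a replicate block, 2045 records were higher and 1730 lower (338 and 232 at least 2-fold), and Sox9 had a log2 difference of -1.53. Precision and calls differed with level. The median SE was 0.108 between 1 and 5 FPKM and 0.0528 above 100 FPKM, with 176.6 and 3529 fragments behind the median record. At these levels 26.6% and 42.5% of records passed, and 6.75% and 3.28% passed with at least a 2-fold change. Between 1 and 5 FPKM 525 records were higher and 342 lower, and above 100 FPKM 138 were higher and 290 lower. The cause was not tested.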
